A study of Mus musculus with 6 samples.

Results

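The genes described here drive cells through the division cycle and copy their DNA. They were chosen as a list of 36 named genes, each read from its brightest probe set with that single gene symbol by mean signal over all arrays. All 36 were on the array and passed the filter on low signals, out of 12917 genes tested. By role, 11 act in G1, 11 in DNA replication during S phase and 14 from G2 through mitosis; Ccna2, which acts in both S phase and G2, was counted with the mitotic genes. The cells were primary mouse embryo fibroblasts, connective tissue cells grown from whole day 15.5 embryos of outbred ICR mice, in 2 cultures from 2 separate embryos, with no transgene or deletion. Control cells stayed at 37 °C, LPS cells received lipopolysaccharide of E. coli at 1 μg/ml for 4 h, and HS+LPS cells spent 1 h at 42 °C before the same 4 h of LPS. Both cultures were measured in all 3 groups, which gave 6 arrays. Cells heated without LPS were not analysed here, so a difference between HS+LPS and LPS holds the effect of heat together with any interplay with LPS.

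In G1, D-type cyclins with Cdk4 and Cdk6, and then E-type cyclins with Cdk2, inactivate the RB proteins and free E2F factors, which switch on the genes of DNA replication. Origins of replication are licensed when Cdc6 and Cdt1 load the MCM helicase, and Pcna and ribonucleotide reductase then serve DNA synthesis. Genes of G2 and mitosis are switched on later, largely through a promoter element called the cell cycle homology region, and most of their mRNAs peak shortly before division. Fibroblasts in serum divide without synchrony, so each array read a mixture of all phases.

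Signals are linear intensities that the authors had scaled to the same trimmed mean of 100 on every array. Cxcl10, a chemokine induced by LPS, read 11.2 and 7.85 in Control (cultures 1 and 2), 591 and 428 with LPS and 35.5 and 46.6 with HS+LPS. Hspa1a, the heat-inducible Hsp70, read 54.8 to 68.1 on the 4 unheated arrays and 5029 and 4940 with HS+LPS. Both genes moved as the group labels say. The brightest of 27 control probe sets for bacterial genes read 6 to 7.67 per array, and the lowest signal of any member was 12.9. All 10 fibroblast markers were above that noise level on every array. Their summed signal was 31128 to 37776 in Control, 32030 to 32499 with LPS and 32882 to 34162 with HS+LPS. Among them Pdgfra and Pdgfrb were lowest with HS+LPS in both cultures: Pdgfra read 198 and 1309 with LPS and 117 and 573 with HS+LPS, and Pdgfrb 1608 and 1549, then 883 and 911. Of 29 markers of macrophages, endothelium, epithelium, skeletal muscle and neural cells, 6 were at or under noise on every array (Itgam, Fcgr1, Pecam1, Vwf, Cdh1 and Myh3) and 16 were above it on every array. The brightest of those 16 reached the level of many members: Map2 read 179 to 532, Acta1 179.6 to 377, Nes 138 to 255 and Lyz2 89.8 to 220.1.

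Differences were tested with limma over all 12917 genes, first without regard to the culture and then with the culture as a block, that is, comparing the groups within each culture. Without the block, any gap between the 2 embryos enters the error, and in that fit 0 of the 36 members passed an adjusted p of 0.05 in any comparison. "Rose" and "fell" are therefore used below for members that passed with the block, unless stated otherwise. The p-values rest on 2 cultures, and every call of a member with the block was lost when the variance was estimated without its dependence on signal intensity (0 members called in each comparison). All log2 differences are on the log2(intensity + 3.37) scale, which understates those of dim genes. HS+LPS against LPS and LPS against Control share the LPS arrays, and HS+LPS against Control shares an arm with each, so the 3 comparisons are not independent.

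After heat shock, mitotic members were mostly lower and S phase members mostly higher than with LPS alone. Mitotic genes had a median log2 difference of -0.44 between HS+LPS and LPS, S phase genes 0.27, G1 genes 0.03, and all genes tested -0.05. With the block 5 of 14 mitotic genes fell and 0 rose, 4 of 11 S phase genes rose and 0 fell, and 1 of 11 G1 genes rose and 1 fell. Over all genes 13% fell and 6.46% rose with the block, 19.4% together, against 11 of 36 members. Without the block the 0 members called stand beside 1.49% of all genes; at an unadjusted p under 0.05 limma gave 5 higher and 5 lower members, where 4.89% and 11.7% of all genes were higher and lower, 16.6% together. No test compared the phase groups with each other, because genes of a phase are not replicates. These arrays measured bulk RNA, so fewer cells in a phase and less of an mRNA per cell cannot be told apart.

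With LPS alone 1 of the 36 members changed. The median log2 differences between LPS and Control were -0.17 (G1), -0.25 (S phase) and -0.10 (mitotic), beside -0.05 over all genes. Of the 36 members 24 were lower in both cultures, 5 were higher in both and 7 went opposite ways, where 38.5% of all genes were lower and 24.7% higher in both. Cdk6 was the member that passed, with the block, where 2.94% of all genes did (2.18% higher and 0.766% lower); without the block 0 members and 0.17% of genes passed, and 0 members had an unadjusted p under 0.05, against 4.81% of genes (3.17% higher and 1.64% lower).

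**Figure D1:**
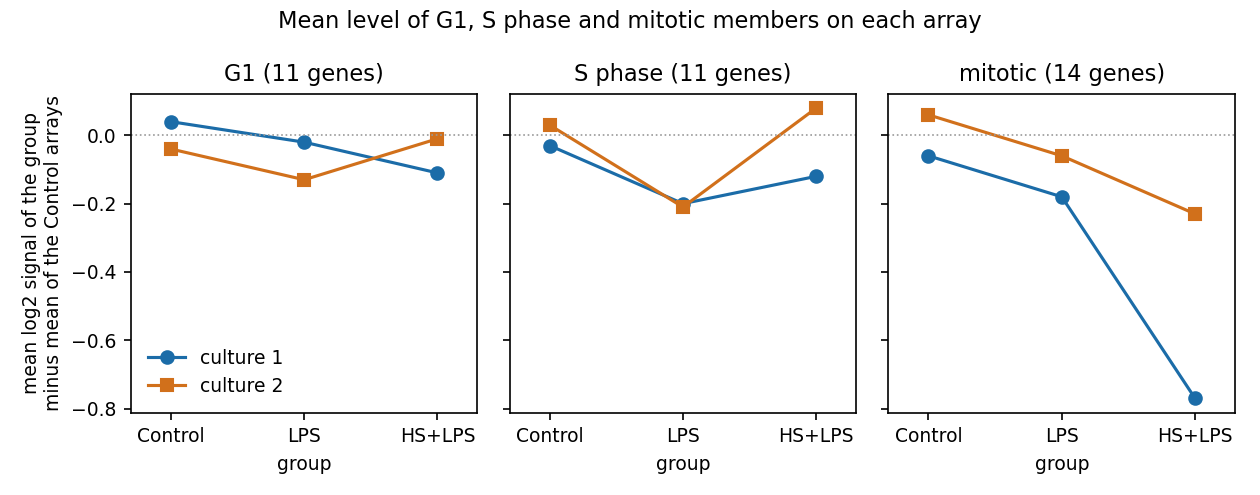
Mean log2 signal of the 11 G1, 11 S phase and 14 mitotic genes on each array (vertical axis, minus the mean of the Control arrays) in Control, LPS and HS+LPS cells; blue circles are culture 1 and orange squares culture 2. The mitotic mean with HS+LPS lay at -0.77 in culture 1 and -0.23 in culture 2, while the S phase mean was at -0.20 and -0.21 with LPS and at -0.12 and 0.08 with HS+LPS.

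Among the mitotic genes the 5 that fell after heat shock were Plk1, Bub1b, Cdk1, Mki67 and Mad2l1. Plk1, a kinase that drives mitotic entry and spindle assembly, read 150.4 and 157 in Control (culture 1 first here and below), 142 and 141 with LPS, and 67.8 and 102 with HS+LPS. Both heated arrays lay below all 4 others. The log2 difference from LPS was -0.74 (SE 0.16 with the block), a level 40.1% lower, and the limma adjusted p was 0.0117 with the block and 0.174 without (0.000237 to 0.122 over the block's alternatives). Bub1b, a kinase-like protein of the spindle checkpoint, read 78.8 and 94.8, then 77.1 and 88.8, then 38.1 and 57.6. It showed the same separation, with a log2 difference of -0.78 (SE 0.16, adjusted p = 0.0103 in limma with the block, 0.197 without, 0.00369 to 0.0895 over the alternatives).

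Cdk1, the kinase whose activity starts mitosis, read 452 and 372 in Control, 373 and 346 with LPS, and 235 and 274 with HS+LPS. Its log2 difference from LPS was -0.50 (SE 0.12; limma adjusted p = 0.021 with the block, 0.199 without, 0.000749 to 0.174 over the alternatives). Mki67, which codes for the proliferation marker Ki-67 on mitotic chromosomes, read 212 and 227, 226 and 208, and 128 and 165. It fell by 0.56 on the log2 scale (SE 0.13; limma adjusted p = 0.0156 with the block, 0.182 without, 0.00124 to 0.155 over the alternatives). Mad2l1, the checkpoint protein that holds back anaphase, read 312 and 344, 303 and 345, and 223 and 252. The fall of Mad2l1 was the same in both cultures, at -0.44 on the log2 scale (SE 0.09; limma adjusted p = 0.0104 with the block, 0.212 without, 0.00917 to 0.116 over the alternatives). For each of these 3 genes, as for Plk1 and Bub1b, the heated arrays were the lowest of the 6. These genes were picked by a test on the same arrays, so the separation is a description and no further support.

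The other 9 mitotic genes did not pass between HS+LPS and LPS. Cdc20, which activates the anaphase-promoting complex, read 764 and 713 in Control, 679 and 700.5 with LPS, and 360.2 and 677 with HS+LPS. Only its culture 1 array was low after heat: the log2 difference from LPS was -0.91 in culture 1 and -0.05 in culture 2. Aurka, the centrosome kinase, differed by -0.72 in culture 1 and -0.20 in culture 2. Both its heated arrays (86.3 and 124) lay below all others. Aurkb, the kinase of the chromosomal passenger complex, differed by -0.48 and -0.10, with both heated arrays (40.8 and 55.7) again the lowest. Cdc25b, the phosphatase that activates Cdk1, differed by -0.54 and -0.35, cyclin A2 (Ccna2) by -0.46 and -0.16, and topoisomerase Top2a by -0.40 and -0.08.

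Birc5 (survivin), the checkpoint kinase Bub1 and cyclin B2 (Ccnb2) were lower after heat in culture 1 and higher in culture 2. Their log2 differences from LPS in culture 1 and culture 2 were -0.20 and 0.26 for Birc5, -0.19 and 0.17 for Bub1, and -0.46 and 0.19 for Ccnb2. Of all 14 mitotic genes, then, 11 were lower in both cultures and 3 went opposite ways, where 40.7% of all genes tested were lower in both. The median difference was -0.51 in culture 1 and -0.18 in culture 2. Each culture has 1 array per group, so this gap between the cultures could not be tested. Without HS+LPS replicate 1 the mitotic median was -0.12 in the fit without the block. That fit set the culture 2 heated array against the LPS arrays of both cultures, so any gap in level between the embryos enters the value.

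**Figure D2:**
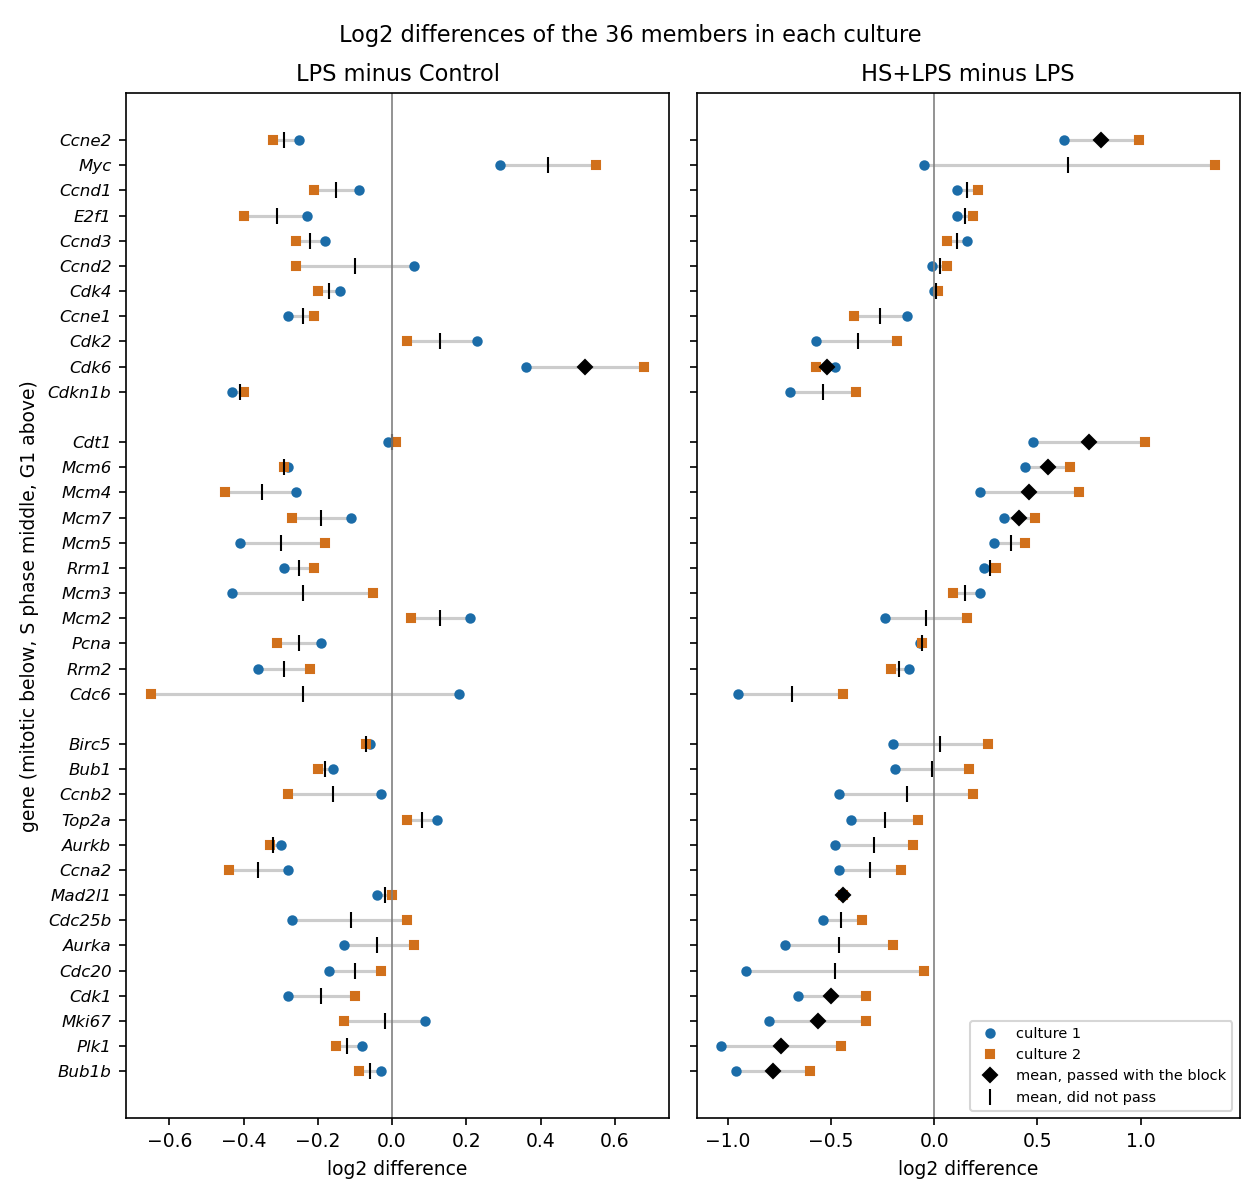
Log2 difference of each of the 36 members between LPS and Control (left) and between HS+LPS and LPS (right; the horizontal scales differ), with culture 1 as blue circles, culture 2 as orange squares, a black diamond for the mean of a gene that passed with the block and a black tick for the mean of one that did not. On the right the diamonds of Plk1 (-0.74) and Bub1b (-0.78) lie at the lower end and those of Ccne2 (0.81) and Cdt1 (0.75) at the upper end.

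Against Control, which gives the combined effect of heat and LPS, 7 of 14 mitotic genes fell with the block and 0 rose, where 12.5% of all genes fell and 5.2% rose. The members that fell were the 5 above with Ccna2 and Aurkb. Ccna2 read 229.9 and 292 in Control, 188 and 214 with LPS and 136 and 191 with HS+LPS. It was lower at both steps in both cultures, and from Control to HS+LPS fell by 0.67 on the log2 scale (SE 0.11; limma adjusted p = 0.0043 with the block, 0.215 without, 0.000857 to 0.0986 over the alternatives). Aurkb read 72.8 and 75.9, 58.3 and 59.7, and 40.8 and 55.7, so that the 3 groups did not overlap. Its difference from Control was -0.61 (SE 0.17; limma adjusted p = 0.0407 with the block and 0.234 without), but the call was lost with no filter, with quantile normalization and with the mean over probe sets (0.0232 to 0.25 over the alternatives).

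Plk1 and Bub1b were the largest mitotic decreases against Control, at -0.86 and -0.84 (SE 0.16 each; limma adjusted p with the block 0.00691 and 0.0082, without it 0.145 and 0.18, over the alternatives 0.000122 to 0.11 and 0.0028 to 0.0915). Cdk1 followed at -0.69 (SE 0.12; limma adjusted p = 0.0059 with the block, 0.128 without, 0.00012 to 0.12 over the alternatives). Mki67 differed by -0.58 and Mad2l1 by -0.46 (limma adjusted p with the block 0.0153 and 0.00953, over the alternatives 0.00131 to 0.138 and 0.00838 to 0.117; without the block 0.181 and 0.205). In this comparison 13 of the 14 were lower in both cultures, against 46.8% of all genes, and Birc5 was the exception, at -0.26 in culture 1 and 0.19 in culture 2. The median was -0.57, beside -0.09 over all genes. Without the block 0 of 36 members passed, as did 0.364% of all genes, and 10 members were lower and 3 higher at an unadjusted p under 0.05 (11.6% and 4.47% of all genes, 16.1% together). In total 13 of 36 members passed with the block and 17.7% of all genes; without Control replicate 1 this was 5 members and without Control replicate 2 it was 4.

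Between LPS and Control the log2 differences of the mitotic genes ran from -0.36 (Ccna2) to 0.08 (Top2a), with Mki67 and Mad2l1 both at -0.02, and 0 passed with the block. Of the 14, 9 were lower in both cultures, 1 was higher in both and 4 went opposite ways.

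Promoter windows of the members were read for the cell cycle homology region, through which mitotic genes are largely switched on. Frequent matches among mitotic genes follow from this known role and say nothing about the treatments. RefSeq promoter windows of build GRCm38.p6, from 250 bases before to 50 after the start of the gene, were matched by symbol for 29 of the 36 members; Aurkb, Ccna2, Ccnd1, Ccnd2, Ccne2, Mcm4 and Myc had none in the table. A cell cycle homology region (TTTGAA or TTCGAA on either strand) was found for 10 of 12 mitotic genes, 2 of 10 S phase genes and 0 of 7 G1 genes, and for 21.7% of all 27025 genes in the table. A gene with several windows was counted where any of them matched; over the 32851 single windows of the same length the share was 19.2%. The mitotic genes without one were Birc5 and Mad2l1, of which the latter fell after heat. A CCAAT box (CCAAT on either strand), which often stands near that element, was found for 10 of 12 mitotic, 8 of 10 S phase and 3 of 7 G1 genes, and for 41.1% of all genes (37.4% of single windows). A match is a description of these letters and not evidence of binding. In Plk1, Aurka, Bub1 and Cdc25b the only match lay after the start of the gene. For Bub1b, Mki67 and Cdk1, which fell after heat, the upstream stretch is shown 5′ to 3′ on the strand of the gene, with the matches in capitals.
Bub1b (GRCm38.p6, chr2:118598003-118598048, plus strand): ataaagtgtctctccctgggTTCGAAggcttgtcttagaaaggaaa
Mki67 (GRCm38.p6, chr7:135716452-135716515, minus strand): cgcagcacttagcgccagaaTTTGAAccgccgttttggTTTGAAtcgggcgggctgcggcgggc
Cdk1 (GRCm38.p6, chr10:69352913-69353003, minus strand): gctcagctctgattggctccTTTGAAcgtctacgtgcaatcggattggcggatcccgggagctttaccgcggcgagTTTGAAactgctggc
Mki67 and Cdk1 each carried the element at 2 places and Bub1b at 1 in the stretch shown. A further match of Bub1b lay after the start of the gene, outside that stretch.

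The 4 S phase genes that rose after heat shock were Cdt1, Mcm6, Mcm4 and Mcm7. Cdt1, which loads the MCM helicase at origins, read 219 and 236 in Control, 218 and 239 with LPS, and 306 and 487 with HS+LPS. Control and LPS arrays lay between 218 and 239 and both heated arrays above them, culture 2 the higher. Cdt1 rose 1.68-fold over LPS (log2 difference 0.75, SE 0.14; limma adjusted p = 0.0063 with the block, 0.187 without, 1.46e-05 to 0.119 over the alternatives). Over Control the rise was 1.69-fold (limma adjusted p = 0.00702 with the block, 0.192 without, 1.74e-05 to 0.123 over the alternatives).

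Mcm6, a helicase subunit, read 312 and 338 in Control, 256 and 276 with LPS, and 349 and 438 with HS+LPS. The LPS arrays were the lowest and the heated arrays the highest. It rose 1.47-fold over LPS (log2 difference 0.55, SE 0.10; limma adjusted p = 0.00513 with the block, 0.164 without, 0.000692 to 0.103 over the alternatives). Mcm4 read 304 and 281, 254 and 206, and 297 and 336, a 1.38-fold rise over LPS (limma adjusted p = 0.0281 with the block, 0.229 without, 0.00126 to 0.283 over the alternatives). For Mcm4 the heated arrays overlapped those of Control, and both LPS arrays were the lowest of the 6. Mcm7 read 537 and 634, 497 and 525, and 629 and 737, and rose 1.33-fold over LPS (limma adjusted p = 0.0101 with the block, 0.234 without, 0.00868 to 0.166 over the alternatives; the call was lost with the mean over its probe sets). Against Control, Mcm6 differed by 0.26, Mcm7 by 0.22 and Mcm4 by 0.11, and none of these 3 passed (limma adjusted p with the block 0.0961, 0.105 and 0.592).

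The remaining helicase subunits did not pass in any comparison. Mcm5 read 199 and 207 in Control, 148 and 182 with LPS and 183 and 249 with HS+LPS, a log2 difference of 0.37 from LPS (limma adjusted p = 0.0598 with the block). Mcm3 differed from LPS by 0.15, and Mcm2 by -0.24 in culture 1 and 0.16 in culture 2. Cdc6, which loads the helicase together with Cdt1, read 24.8 and 31.2 in Control, 28.5 and 18.6 with LPS, and 13.1 and 12.9 with HS+LPS. The heated arrays were the lowest, at log2 differences of -0.69 from LPS and -0.93 from Control, which missed the threshold with the block (limma adjusted p = 0.124 and 0.0541). It was also the dimmest member.

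Of the genes that supply or clamp the DNA polymerases, Pcna and Rrm2 fell against Control. Pcna, the sliding clamp of the DNA polymerases, read 1167 and 1320 in Control, 1025 and 1063 with LPS, and 975 and 1022 with HS+LPS. Control arrays were highest and heated arrays lowest, and the level with HS+LPS was 19.5% under Control (log2 difference -0.31, SE 0.08; limma adjusted p = 0.0225 with the block, 0.25 without, 0.00656 to 0.197 over the alternatives). Rrm2, the regulated subunit of ribonucleotide reductase, read 1205 and 754, 939.7 and 647, and 865 and 557. It was lower at both steps in both cultures and was 27.1% lower with HS+LPS than in Control (log2 difference -0.46, SE 0.08; limma adjusted p = 0.00536 with the block, 0.57 without, 0.00303 to 0.123 over the alternatives). Rrm1, the other subunit, read 370.2 and 537, 303 and 464, and 358 and 574, and did not pass in any comparison; its log2 difference between HS+LPS and LPS was 0.27 (limma adjusted p = 0.0567 with the block).

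Of the 11 S phase genes 7 were higher in both cultures with HS+LPS than with LPS and 3 lower in both, where 31% of all genes were higher in both. Between LPS and Control 8 of the 11 were lower in both cultures and 1 was higher in both, with log2 differences from -0.35 (Mcm4) to 0.13 (Mcm2), and 0 passed with the block. The other probe set of Mcm2, of nearly the same brightness (mean signal 125 against 129), gave -0.26, so its direction is unsettled. From Control to HS+LPS their median was 0.07, with 1 gene higher and 2 lower with the block, and 3 were higher in both cultures, where 25% of all genes were. Within culture 1 the S phase median between HS+LPS and LPS was 0.22, and within culture 2 it was 0.30. In fits without the block it was 0.52 without HS+LPS replicate 1, 0.15 without HS+LPS replicate 2 and 0.10 without LPS replicate 1. Those fits set 1 array against arrays of both cultures, so any gap in level between the embryos enters these values.

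**Figure D3:**
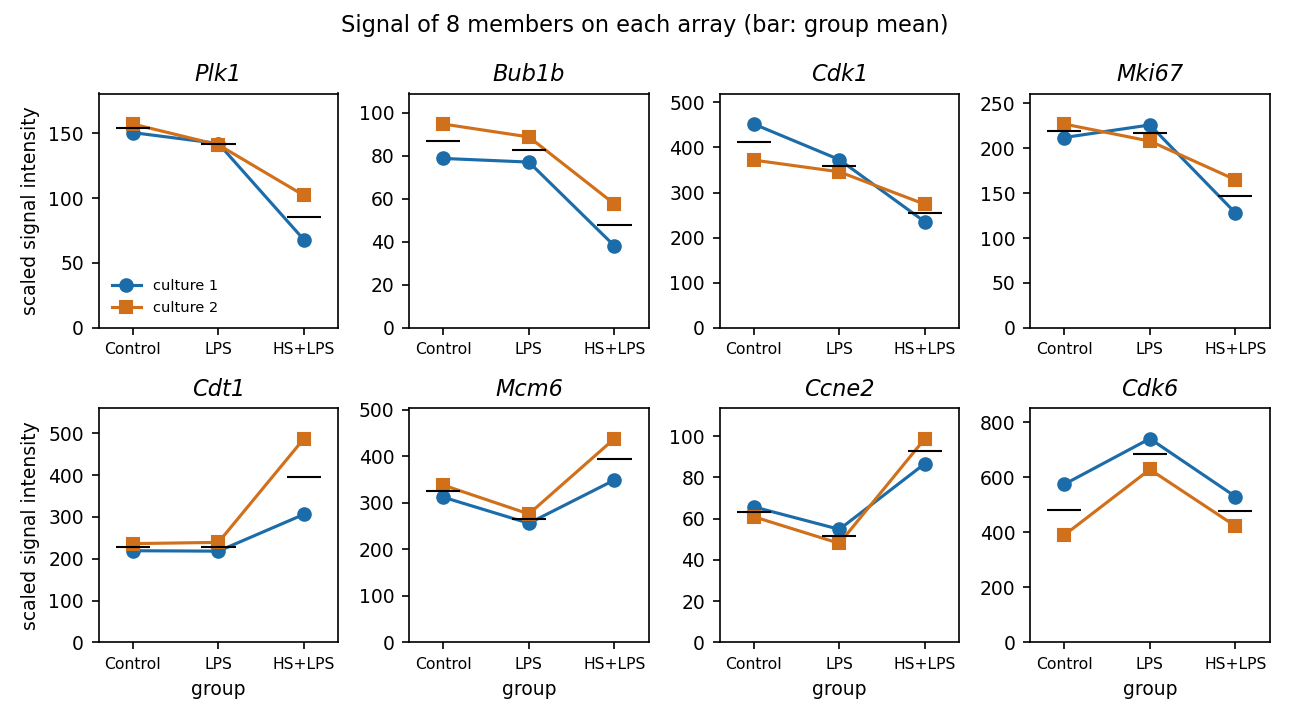
Scaled signal intensity of 8 members on each array, by group, with culture 1 as blue circles, culture 2 as orange squares and the group mean as a black bar; each vertical axis starts at 0. Plk1, Bub1b, Cdk1 and Mki67 are lowest with HS+LPS in both cultures, Cdt1, Mcm6 and Ccne2 are highest there, and Cdk6 is highest with LPS (741 and 629).

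Windows of the S phase genes were read for the site of E2F, the transcription factor family known for driving such genes. An E2F site (TTTCCCGC, TTTGGCGC or TTTCGCGC on either strand; a site of one kind can overlap another on the opposite strand) was found for 6 of 10 S phase genes, namely Cdc6, Cdt1, Mcm3, Mcm5, Mcm6 and Mcm7. Of the 2 windows of Mcm7, 1 held it. The site was found for 1 of 12 mitotic genes (Cdk1), 1 of 7 G1 genes (Cdk2) and 2.12% of all 27025 genes (1.84% of single windows). Of the 6, Cdt1, Mcm6 and Mcm7 rose over LPS after heat, and Cdc6 was the one at its lowest level there. The matches of Cdt1 and Mcm3 lay after the start of the gene, as did a further match of Mcm7. For Mcm6 and Mcm7 the upstream stretches are shown because both rose, with the E2F sites in capitals.
Mcm6 (GRCm38.p6, chr1:128359725-128359835, minus strand): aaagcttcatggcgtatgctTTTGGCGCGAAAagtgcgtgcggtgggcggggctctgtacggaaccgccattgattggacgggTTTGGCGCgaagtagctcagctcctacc
Mcm7 (GRCm38.p6, chr5:138172021-138172068, minus strand): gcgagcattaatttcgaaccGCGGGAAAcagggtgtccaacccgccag
Mcm6 held 3 matches in this stretch, of which a pair on opposite strands overlaps, and Mcm7 held 1.

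**Figure D4:**
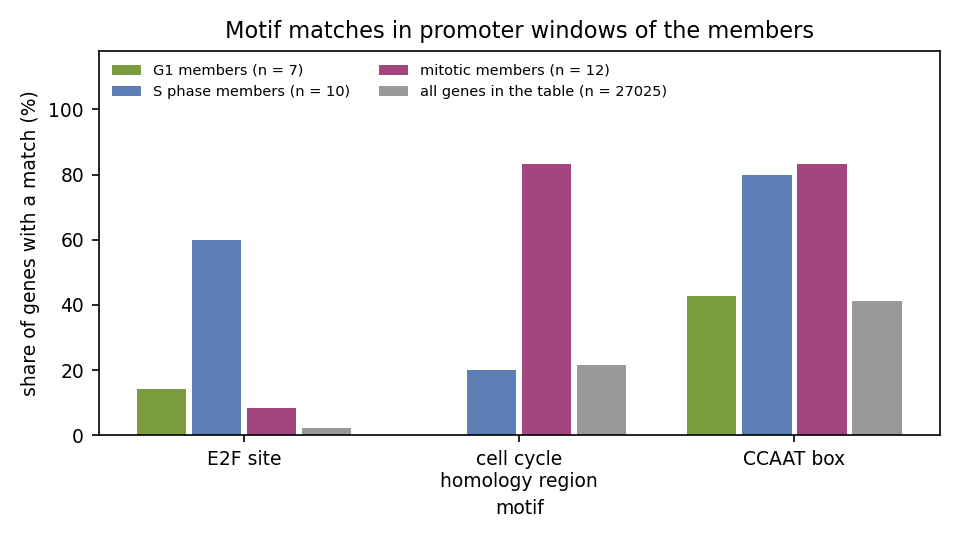
Share of genes (percent, vertical axis) with at least 1 match in a promoter window to the E2F site, the cell cycle homology region or the CCAAT box, for 7 G1, 10 S phase and 12 mitotic members and for all 27025 genes of the table. The E2F bar is highest for S phase genes (60%) and the homology region bar for mitotic genes (83.3%).

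With LPS, 7 of the 11 G1 genes were lower than Control in both cultures and 3 were higher in both (63.6% lower, beside 38.5% of all genes). Between HS+LPS and LPS 4 (36.4%) were lower and 5 (45.5%) higher in both, beside 40.7% and 31% of all genes. Cdk6, the kinase partner of D-type cyclins, was the member that rose with LPS: it read 575 and 390.2 in Control, 741 and 629 with LPS, and 530.3 and 423 with HS+LPS. The LPS arrays lay above all others, and the heated arrays lay within the range of Control. Cdk6 rose 1.44-fold with LPS (log2 difference 0.52, SE 0.10; limma adjusted p = 0.0208 with the block, 0.999 without, 0.00176 to 0.353 over the alternatives) and was 30.5% lower with HS+LPS than with LPS (limma adjusted p = 0.00628 with the block, 0.314 without, 0.00233 to 0.123 over the alternatives). The 2 further probe sets of Cdk6 above the filter showed the same course, with log2 differences of 0.70 and 1.29 with LPS and of -0.67 and -0.77 from LPS to HS+LPS. This LPS call was lost without LPS replicate 1, LPS replicate 2 or Control replicate 2, where 0 members passed.

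The E-type cyclins, which start S phase with Cdk2, took different courses. Ccne2 read 65.7 and 60.9 in Control, 54.8 and 48.0 with LPS, and 86.7 and 98.8 with HS+LPS. The 3 groups did not overlap, and Ccne2 rose 1.76-fold over LPS (log2 difference 0.81, SE 0.16; limma adjusted p = 0.00895 with the block, 0.103 without, 0.00309 to 0.0996 over the alternatives). Against Control it differed by 0.53 and narrowly missed (limma adjusted p = 0.0534 with the block). Ccne1 read 184 and 184, 151 and 159, and 138 and 121, falling by 0.50 on the log2 scale from Control to HS+LPS (SE 0.12; limma adjusted p = 0.0186 with the block, 0.178 without, 0.0048 to 0.18 over the alternatives). This call was lost with the mean over probe sets: the second probe set of Ccne1 differed by -0.11.

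Cdkn1b (p27), an inhibitor of cyclin-Cdk complexes, read 46.3 and 92.7 in Control, 33.6 and 69.5 with LPS, and 19.3 and 52.8 with HS+LPS. It was lower at each step in both cultures while the cultures differed 2.11-fold, so the groups overlap. From Control to HS+LPS Cdkn1b fell by 0.95 on the log2 scale, 48.3% lower (SE 0.19; limma adjusted p = 0.0091 with the block, 0.489 without, 0.00306 to 0.0861 over the alternatives). Myc, a transcription factor that promotes growth and entry into the cycle, read 192 and 108, 234 and 159.6, and 226 and 414. The high heated value came from culture 2: the log2 difference from Control was 0.23 in culture 1 and 1.91 in culture 2. Its mean difference of 1.07 passed with the block (SE 0.31; limma adjusted p = 0.0443, and 0.259 without the block), but 6 of 9 alternatives to the block fit lost the call and it ranged from 9.93e-08 to 0.337 over all of them.

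The remaining G1 genes did not pass in any comparison. Ccnd1, which couples growth signals to the cycle, differed by -0.15 with LPS and by 0.16 from LPS to HS+LPS. Ccnd2 and Ccnd3, the other D-type cyclins, differed by -0.10 and -0.22 with LPS and by 0.03 and 0.11 from LPS to HS+LPS. Cdk4, the close relative of Cdk6, did not share its course, at -0.17 with LPS and 0.01 after heat. Cdk2 differed by 0.13 with LPS and -0.37 from LPS to HS+LPS, and the transcription factor E2f1 by -0.31 and 0.15.

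Further genes of the cycle, listed from textbook knowledge, were read for the same comparisons. The lists were made with earlier results of these data known, so they are no independent check of the members. Of 49 other mitotic genes 48 were tested. Between HS+LPS and LPS 16 of these 48 fell with the block and 1 rose (Cenpk, named after its values were seen), 33.3% lower beside 13% of all genes, with a median of -0.30. Incenp, the scaffold of the chromosomal passenger complex, read 420 and 348 in Control, 396 and 357 with LPS, and 143 and 189 with HS+LPS. It was the only gene of these lists to fall without the block as well (log2 difference -1.18, SE 0.19, limma adjusted p = 0.0477, and 0.0446 to 0.237 over the alternatives; 0.00088 with the block). Kif2c, a microtubule-depolymerising kinesin, fell by 1.22 on the log2 scale, the checkpoint kinase Ttk by 0.98 and the chromosome kinesin Kif22 by 0.94 (limma adjusted p with the block 0.00537, 0.0274 and 0.000313, over the alternatives 5.47e-06 to 0.105, 0.000632 to 0.189 and 3.53e-05 to 0.0582). Against Control 18 of the 48 fell with the block and 0 rose, 37.5% beside 12.5% of all genes, with a median of -0.42. Incenp, Kif2c, Kif22 and Ttk again fell, by 1.20, 1.10, 1.09 and 0.93 on the log2 scale. With the block the calls of Ttk were lost with quantile normalization, and against Control also with no filter. The probe sets read for Incenp, Kif2c and Kif22 were of a type that can cross-hybridise. Between LPS and Control 0 of the 48 passed in either fit, and the cell cycle homology region was found for 26 of the 40 of them with a promoter window. The call of Ttk was lost in 3 of the 6 fits that left out an array, both against LPS and against Control.

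Of 43 other replication genes 41 were tested. Between HS+LPS and LPS 2 rose and 1 fell with the block, 7.32% beside 19.4% of all genes, with a median of 0.01 beside -0.05: the clamp loader subunit Rfc4 (log2 difference 0.56), the single-strand binding subunit Rpa3 (0.42), and Dbf4, the activator of the Cdc7 kinase (-0.36), at limma adjusted p with the block of 0.0235, 0.0409 and 0.0354 (over the alternatives 0.00952 to 0.149, 0.0246 to 0.209 and 0.0306 to 0.233). The calls of Rpa3 and Dbf4 were lost with median centring and in all 6 fits that left out an array, and that of Rfc4 in 3 of the 6. The call of Rfc4 was also lost with the mean over probe sets and that of Dbf4 with quantile normalization. Without the block the limma adjusted p of Rfc4, Rpa3 and Dbf4 were 0.595, 0.432 and 0.253. Against Control 4 fell and 0 rose with the block, 9.76% beside the 12.5% of all genes that fell, with a median of -0.17 beside -0.09: thymidine kinase Tk1 at -0.84, the flap nuclease Fen1 at -0.78, Rpa2 at -0.69 and Dbf4 at -0.35. Their limma adjusted p with the block were 0.00938, 0.0336, 0.0166 and 0.0403, and without it 0.298, 0.243, 0.163 and 0.27 (over the alternatives to the block fit 0.00323 to 0.119, 9.13e-06 to 0.283, 0.0149 to 0.141 and 0.0345 to 0.3). Dbf4 was called in 0 of the 6 fits that left out an array, and Fen1 was lost with no filter and with quantile normalization. Fen1 differed from Control by -0.30 in culture 1 and -1.26 in culture 2, and its probe set was of a type that can cross-hybridise. With LPS alone 0 of the 41 passed, and their median was -0.20 beside -0.05 over all genes; 25 of them (61%) were lower in both cultures, against 38.5% of all genes.

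Of 27 other G1 genes 26 were tested. Between HS+LPS and LPS 2 fell and 1 rose with the block, 11.5% beside 19.4% of all genes, with a median of -0.07 beside -0.05. Inhibitors of the D-type kinases led those that passed: Cdkn2d fell by 0.57 and Cdkn2b by 0.56 on the log2 scale between LPS and HS+LPS, and Cdkn1c, an inhibitor related to p27, rose by 0.52 (limma adjusted p with the block 0.0224, 0.00463 and 0.00776, over the alternatives 0.0223 to 0.237, 0.000878 to 0.122 and 0.00456 to 0.114). Without the block the limma adjusted p of Cdkn2d, Cdkn2b and Cdkn1c were 0.392, 0.121 and 0.677. With the block the call of Cdkn2d was lost with quantile normalization. Of the further inhibitors listed, Cdkn2c differed by -0.33 from LPS to HS+LPS, Cdkn1a by 0.22 and Cdkn2a by 0.23, and none of these passed. Cdkn2b read 1245 and 1099 in Control, 1165 and 1249 with LPS and 897 and 744 with HS+LPS, with both heated arrays lowest. Against Control 5 of the 26 fell and 0 rose with the block, 19.2% beside the 12.5% of all genes that fell, led by Cdkn2d (-0.93), Cdkn2c (-0.71), Cdkn2b (-0.52) and Mnat1, an assembly factor of the Cdk-activating kinase (-0.51). Their limma adjusted p with the block were 0.00312, 0.00754, 0.00755 and 0.0389 (over the alternatives 0.000922 to 0.0874, 0.00525 to 0.104, 0.00159 to 0.14 and 0.00232 to 0.287). The call of Mnat1 was lost with no filter, with quantile normalization and in 3 of the 6 fits that left out an array. With LPS alone 0 of the 26 passed in either fit.

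The 2 cultures differed in several members whatever the treatment. Of the 36, 5 (13.9%) were higher in culture 1 in all 3 groups and 17 (47.2%) were higher in culture 2, where 25.6% and 27.9% of all genes were. In either direction this was 61.1% of members, near the 53.5% of all genes. Ccnd1 was 1.73-fold higher in culture 1 (2429 ± 97.8 against 1409 ± 116, SD over the 3 arrays of a culture) and Rrm2 1.53-fold. Culture 2 was higher for Cdkn1b (2.11-fold), Ccnb2 (1.64-fold), Rrm1 (1.52-fold), Birc5 (1.40-fold) and Cdk4 (1.35-fold). Of the mitotic genes 9 were higher in culture 2 in all 3 groups and 0 in culture 1. Each culture is 1 embryo, so these are descriptions of these cultures and carry no test.

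The summed signal of 5 skeletal muscle markers was 292 to 340 in Control, 247 to 296 with LPS and 363 to 438 with HS+LPS. Acta1 and Des carried nearly all of it. Myod1 and Myog were at 10.6 or less on every array and under noise on both HS+LPS arrays, so no direction is read for them. Myh3 was at or under noise. For 6 epithelial markers the sum in the same group order was 54.3 to 61.3, 52.2 to 96.3 and 89.3 to 126, with Cdh1 at or under noise. The sum of 5 neural markers was 528 to 738, 445 to 693 and 692 to 925. Macrophage markers (7 genes) read 215 to 396, 200.4 to 368 and 204 to 325 and endothelial markers (6 genes) 57.5 to 72.9, 40.8 to 90.5 and 68.1 to 102. Ratios of 3′ to 5′ signal, a measure of RNA degradation, were 1.12 to 1.17 for actin and 0.762 to 0.815 for Gapdh on all arrays. The part of these markers in the results was not tested.

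Most members had more than 1 probe set above the filter (22 of 36), and for 9 the one used was of a type that can cross-hybridise. Among these 9 were Ccne1, Mcm7, Rrm2 and Aurkb, each of which passed with the block in a comparison. The others were Cdk4, Cdc20, Mcm2, Mcm3 and Mcm5. The second probe sets of Bub1b, Cdt1, Mcm6 and Mcm4 gave log2 differences between HS+LPS and LPS of -0.80, 0.61, 0.51 and 0.33, in the direction of those used. For Mcm7 the 3 further probe sets gave 0.20, 0.14 and 0.12 against the 0.41 of the brightest. Of the 22, a further probe set had the opposite sign for 7 members between LPS and Control (Bub1b, Ccnd2, Ccnd3, Mcm2, Mcm3, Mcm7 and Top2a), for 3 between HS+LPS and LPS (Ccne1, Cdk4 and Mcm3) and for 4 between HS+LPS and Control (Ccnd2, Ccnd3, Mcm2 and Rrm1). Plk1, Cdk1, Mki67 and Mad2l1 were each measured by a single probe set, so their values have no second reading.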

How the data were processed

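RNA of 6 cell samples was hybridised to 1-colour Affymetrix mouse arrays. The deposited values are linear intensities, 1 per probe set, which the authors had scaled to a common trimmed mean, as read from the values; the software and background correction are not given in the sources used here. Of 45101 probe sets 64 controls were left out. Values were taken as log2(intensity + 3.37), the 25th percentile of all values, and 27022 probe sets at or above the 40th percentile of mean signal were fitted with limma 3.58.1 (R 4.3.3; lmFit, eBayes with intensity trend) over all 6 arrays. A gene was read from its brightest probe set with 1 symbol in the platform annotation, and p-values were adjusted by Benjamini-Hochberg over 12917 genes. The script was tested on simulated data. The number of arrays limits the precision (residual degrees of freedom 3, and 2 with the block).

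The titles number the arrays MEF1 or MEF2, and arrays with the same number were taken to come from the same culture. Deviations of same-numbered arrays from their group means correlated over genes at 0.62 between Control and LPS, at 0.57 between HS+LPS and Control, and at 0.53 between HS+LPS and LPS arrays, so the numbers pair the samples and the block was used as the paired analysis. Alternatives were other pseudocounts, filters, normalizations, probe set rules, variance models and each array left out. Added after seeing the data were these settings combined with the block, and a fit on 1 probe set per gene. The members and the further gene lists were chosen with earlier results of these data known. All 36 members are named; of the further lists, genes called without the block, filled up to 4 per comparison by size among those called with it.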

Additional observations from a re-analysis of the deposited data

How the results depend on the processing

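The replicate block decided the calls: without it 0 members passed in each comparison, and with it 1 passed for LPS against Control, 11 for HS+LPS against LPS and 13 for HS+LPS against Control. With the block but no intensity trend in the variance, 0 members passed in each of the 3 comparisons. With each array left out in turn, members called without the block numbered 0 throughout, and with the block 0 to 4, 2 to 14 and 4 to 14 in the same order; HS+LPS against LPS gave 2 without LPS replicate 2 and 6 without LPS replicate 1, and HS+LPS against Control 5 without Control replicate 1 and 4 without Control replicate 2. The medians under these omissions were taken from the fits without the block, so any gap in level between the embryos enters them. For LPS against Control they ran from -0.21 to -0.09 (all members), -0.23 to -0.14 (G1), -0.31 to -0.15 (S phase) and -0.15 to -0.06 (mitotic). For HS+LPS against LPS they ran from -0.24 to -0.03, -0.05 to 0.19, 0.10 to 0.52 and -0.63 to -0.12. For HS+LPS against Control they ran from -0.35 to -0.18, -0.20 to -0.03, -0.14 to 0.20 and -0.81 to -0.32. The mitotic median for LPS against Control was -0.11 with the lower pseudocount, quantile normalization, median centring or the mean over probe sets. The G1 median for HS+LPS against LPS was -0.07 with quantile normalization and 0.12 with the mean over probe sets, which also gave 0.20 for the S phase median there and, for HS+LPS against Control, 0.04 for the G1 median and -0.06 in place of 0.07 for the S phase median. The causes were not tested. No called value changed sign under the alternatives run. With 2 cultures, small differences could not be resolved.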
